A study of Mus musculus with 19 samples.

Results

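Gene expression was compared between macrophages and monocytes sorted from the bone marrow of mice with breast cancer bone metastases. The comparison takes every array that the labels give to metastasis macrophages (5 arrays) or to metastasis monocytes (4 arrays), which is 9 of the 19 arrays of the study. Female mice of a strain that is not named had received 100000 MetBo2 cells by injection into the heart at an age of 4 weeks, and no treatment. MetBo2 is a clone of Met-1, a mouse mammary tumour line of the polyoma middle T model, selected for homing to bone. The monocytes were sorted as Ly6C+ inflammatory monocytes, and the labels name no marker for the sort of the macrophages. The other 10 arrays held macrophages (5) and monocytes (5) of healthy marrow, whose donors have no stated age or injection. They entered the estimate of the spread that all tests share, and were compared to ask which differences of tumour-bearing marrow were also seen without a tumour. Nothing in the labels ties each array to a mouse of its own, so every p-value measures only the spread between these samples.

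Ly6C-high monocytes are made in the marrow, leave it through the chemokine receptor Ccr2 and can turn into macrophages in tissues. Resident marrow macrophages engulf dying cells and the nuclei that red cell precursors expel, recycle the iron, and hold blood-forming cells in place through the adhesion molecule Vcam1. Neutrophils mature in the same marrow and make their granules in order, first primary granules with proteases such as cathepsin G, then secondary granules with lactoferrin, then granules with gelatinase.

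Expression was read on Affymetrix mouse gene arrays as 1 log2 value for each of 20998 genes, so a difference of 1 means a 2-fold change. All differences below are macrophages minus monocytes. The array medians lay between 4.45 and 4.55. Across genes, arrays of macrophages correlated with each other at 0.986 to 0.993, arrays of monocytes at 0.992 to 0.994, and arrays of different cell types at 0.965 to 0.969. The first principal component of the 9 arrays held 66.1% of the variance and parted the cell types. The second (7.88%) spread the macrophage arrays. Array 2 lay at -27.7 on it, arrays 4 and 5 at -1.27 and -5.65, and arrays 1 and 3 on the other side at 20.2 and 12.3. The 4 Y-linked genes, which female mice lack, lay between 2.12 and 2.83 on the 9 arrays. The upper value served as the floor below which a level cannot be told from no expression, and 3028 genes had both group means at or under it.

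The markers taken for each label did not all follow the labels. Of 10 macrophage markers 5 were higher on the macrophage arrays, 4 did not pass and 1 was lower, with a median difference of 0.53. The complement genes C1qb (1.19 ± 0.25, SE), C1qc (1.00 ± 0.16) and C1qa (0.89 ± 0.24) were higher, as were Vcam1 (1.08 ± 0.18) and the uptake receptor gene Axl (0.67 ± 0.13). The groups of C1qa overlapped, and its difference of 0.20 in healthy marrow did not pass (adjusted p = 0.600 by limma). Adgre1, whose product is the standard surface marker of mouse macrophages, was lower, with levels of 6.73, 7.04, 7.04, 7.26 and 6.88 on the macrophage arrays, against 8.0, 7.72, 8.20 and 7.89 on the monocyte arrays. The groups did not overlap, and the difference of -0.96 ± 0.16 had an adjusted p of 5.93e-05 by limma. Mertk, an uptake receptor gene used to define tissue macrophages, stood at -0.64 ± 0.30 and did not pass, except without monocyte array 1 (adjusted p = 0.0358). It read 4.11, 4.02, 4.61, 4.63 and 4.03 on the macrophage arrays, against 4.18, 4.65, 6.42 and 4.42 on the monocyte arrays. Only monocyte array 3 lay far above the macrophage levels, and the groups overlapped. Siglec1 (0.04 ± 0.22), Cd163 (-0.13 ± 0.13) and Mrc1 (0.39 ± 0.22) did not pass either. In healthy marrow Mrc1 was called higher (0.81 ± 0.20, adjusted p = 0.00403 by limma).

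Of 6 monocyte markers 4 were lower on the macrophage arrays, 1 was higher and 1 did not pass. Vcan, F13a1 and Ccr2 were among the lower ones. Chil3, which encodes a chitinase-like protein, was higher at 0.45 ± 0.14, a call that was lost without monocyte array 4 (adjusted p = 0.0992). Ly6c2, which encodes the Ly6C of the sort, read 12.26, 11.88, 12.20, 12.18 and 12.26 on the macrophage arrays, against 12.40, 12.31, 12.60 and 12.22 on the monocyte arrays. Its levels overlapped and its difference of -0.23 ± 0.12 did not pass (adjusted p = 0.186). In healthy marrow Ly6c2 was called lower (-0.34 ± 0.11, adjusted p = 0.0250 by limma). Chil3 and Ly6c2 were near the top of the scale in both groups. The highest value of the table, 12.6, was that of Ly6c2 itself on monocyte array 3. Differences may be compressed at such levels, so their size may be poorly measured, and this was not tested. Csf1r, the receptor gene on which both monocytes and macrophages depend, was lower in macrophages, with levels of 8.81, 9.40, 8.92, 9.25 and 9.07 on the macrophage arrays, against 9.95, 9.65, 9.72 and 9.99 on the monocyte arrays (difference -0.74 ± 0.17, adjusted p = 0.00234, no overlap). The arrays labelled macrophages are called macrophage arrays here by their label. Levels and differences given for macrophages likewise refer to these arrays, and not to a cell identity shown by the markers. Of the gene lists, that of maturing neutrophils had the largest median difference between these arrays and the monocyte arrays, and it is described after the counts over all genes.

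In limma 5563 of 20998 genes passed an adjusted p of 0.05 (26.5%). Of these, 2015 were higher in macrophages (9.6%) and 3548 lower (16.9%). These shares of all genes are the ones to set beside each list count below. The lower genes were more numerous, but the large differences ran the other way. At 4-fold or more, 179 genes were higher and 17 lower, and at 16-fold or more 26 were higher and none lower. In 4561 of the called genes no macrophage array overlapped with a monocyte array. Over all genes 24.2% had no overlap. The median standard error of a difference was 0.120. Leaving out macrophage array 2 gave 5448 calls.

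**Figure D1:**
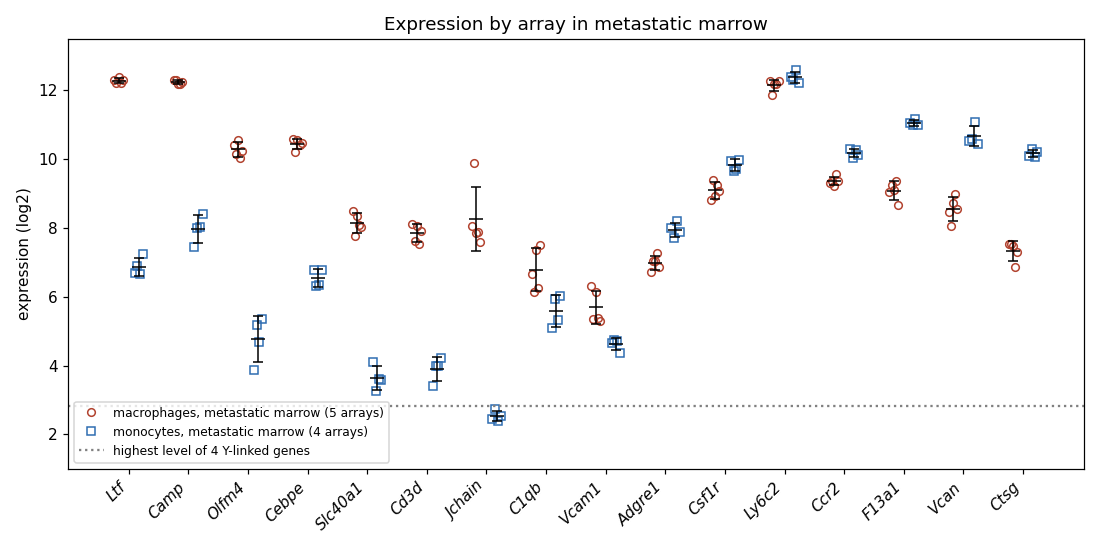
Log2 expression of 16 genes on each array of metastatic marrow. Circles are the 5 macrophage arrays, squares the 4 monocyte arrays, bars the mean and SD, and the dotted line the highest level of the Y-linked genes (2.83). From Ltf to Vcam1 the macrophages are the higher group, from Adgre1 on the lower one, and of the 16 genes only Ly6c2 has groups that overlap.

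Among the 36 gene lists, which were chosen with earlier results of these data known, that of maturing neutrophils had the widest gap. Of 19 genes with a value, 18 were higher in macrophages and 1 lower, against 9.6% and 16.9% of all genes. The median difference was 2.84, against 0.01 over all genes. The list's mean level lay between 9.98 and 10.28 on the macrophage arrays and between 7.05 and 7.77 on the monocyte arrays. Ltf encodes lactoferrin, the iron-binding protein of secondary granules, and read 12.31, 12.21, 12.39, 12.23 and 12.30 on the macrophage arrays, against 6.70, 6.89, 6.67 and 7.25 on the monocyte arrays. It was 42.5-fold higher in macrophages (log2 5.41 ± 0.21, SE, adjusted p = 1.42e-14). On all 5 macrophage arrays the levels of Ltf, Camp, Lcn2 and Ngp were near the top of the scale, where the highest value was 12.6, so the differences of these genes and the spread of their macrophage levels may be understated.

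Camp encodes cathelicidin, an antimicrobial peptide of the same granules, and had levels of 12.30, 12.29, 12.19, 12.19 and 12.26 on the macrophage arrays, against 7.45, 8.01, 8.02 and 8.42 on the monocyte arrays (difference 4.27 ± 0.25). Olfm4, a granule glycoprotein gene, read 10.42, 10.16, 10.57, 10.03 and 10.24 on the macrophage arrays, against 3.87, 5.19, 4.69 and 5.35 on the monocyte arrays (45.5-fold, adjusted p = 9.00e-13). Neither gene had overlapping groups. Lcn2, whose product binds bacterial siderophores, was higher by 2.84 ± 0.22, Mmp9, the gelatinase gene, by 3.20 ± 0.24, and Cxcr2, a chemokine receptor gene of neutrophils, by 3.33 ± 0.22. Orm1, an acute-phase glycoprotein gene, read 9.83, 9.56, 10.00, 9.75 and 9.80 on the macrophage arrays, against 4.67, 4.92, 6.01 and 4.73 on the monocyte arrays (difference 4.71 ± 0.27). Stfa2l1, a stefin A protease inhibitor gene, read 9.39, 9.32, 10.11, 9.99 and 9.85 on the macrophage arrays, against 3.25, 4.48, 6.72 and 6.08 on the monocyte arrays. Its monocyte levels spread widely, and its difference of 4.60 ± 0.49 became 3.98 without monocyte array 1. Mmp8, the neutrophil collagenase gene, was the exception in the list, with levels of 9.18, 9.18, 9.60, 8.81 and 8.89 on the macrophage arrays, against 10.69, 10.65, 11.31 and 10.65 on the monocyte arrays (difference -1.69 ± 0.21, adjusted p = 2.16e-06). In cells measured in bulk, fewer cells of a type and less RNA per cell cannot be told apart.

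Genes of primary granules and of progenitors, taken as 1 list, went both ways. Of 16 primary granule and progenitor genes 9 were higher, 3 lower and 4 did not pass, with a median of 0.83. The 3 lower genes all encode primary granule enzymes. Ctsg, cathepsin G, read 7.54, 7.55, 7.48, 6.86 and 7.29 on the macrophage arrays, against 10.09, 10.30, 10.07 and 10.22 on the monocyte arrays, which is 7.08-fold lower in macrophages (difference -2.82 ± 0.18, adjusted p = 7.55e-11). Mpo, myeloperoxidase, stood at -1.37 ± 0.20 and Prtn3, proteinase 3, at -0.73 ± 0.18. Elane, neutrophil elastase, read 10.19, 9.57, 9.85, 9.39 and 9.37 on the macrophage arrays, against 9.64, 9.90, 9.67 and 9.97 on the monocyte arrays and did not pass (difference -0.12 ± 0.23). Cebpe, the transcription factor gene that drives secondary granule genes, read 10.59, 10.21, 10.56, 10.41 and 10.47 on the macrophage arrays, against 6.78, 6.32, 6.33 and 6.77 on the monocyte arrays. It was 14.9-fold higher in macrophages without overlap (difference 3.90 ± 0.15). Kit, the stem cell factor receptor gene, was higher by 2.36 ± 0.20, and Ms4a3, a gene of myeloid progenitors, by 1.46 ± 0.18.

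Promoter sequence is printed for 4 genes of this contrast, with and without the motif. The windows are the 250 bases before the annotated start in RefSeq on GRCm38.p6, read 5′ to 3′ on the strand of the gene. Capitals mark each match to TTGCNNAA, the core bound by C/EBP factors, on either strand. Ltf, Camp and Ngp, a neutrophilic granule protein gene with a difference of 3.54 ± 0.17, were high in macrophages, and Ctsg was high in monocytes.

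Ltf, chr9:111019042-111019291, plus strand: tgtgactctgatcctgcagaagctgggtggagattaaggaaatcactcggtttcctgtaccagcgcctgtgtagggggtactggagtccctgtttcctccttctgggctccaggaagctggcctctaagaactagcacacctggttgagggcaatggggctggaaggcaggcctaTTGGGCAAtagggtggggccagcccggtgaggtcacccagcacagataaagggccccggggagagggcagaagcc
Ngp, chr9:110419558-110419807, plus strand: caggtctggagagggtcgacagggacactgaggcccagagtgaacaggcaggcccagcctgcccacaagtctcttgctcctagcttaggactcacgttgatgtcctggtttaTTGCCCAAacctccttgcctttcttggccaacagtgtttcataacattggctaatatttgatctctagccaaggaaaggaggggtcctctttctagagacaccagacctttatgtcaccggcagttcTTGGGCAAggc
Camp, chr9:109849457-109849706, minus strand: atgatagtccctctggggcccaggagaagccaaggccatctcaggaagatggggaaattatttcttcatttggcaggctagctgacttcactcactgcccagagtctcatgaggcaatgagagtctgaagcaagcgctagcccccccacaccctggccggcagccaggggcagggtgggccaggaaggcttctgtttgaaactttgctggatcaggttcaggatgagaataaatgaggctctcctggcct
Ctsg, chr14:56102575-56102824, minus strand: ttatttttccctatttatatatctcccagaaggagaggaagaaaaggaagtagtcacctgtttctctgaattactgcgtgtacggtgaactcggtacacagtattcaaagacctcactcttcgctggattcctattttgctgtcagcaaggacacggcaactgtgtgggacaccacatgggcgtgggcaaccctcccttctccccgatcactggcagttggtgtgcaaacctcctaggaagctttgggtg

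Counted from the start site, the match in Ltf begins at -75 and those in Ngp at -138 and -11, and the windows of Camp and Ctsg hold none. The window of Lcn2, which is not printed, holds 1. Of the 19 measured neutrophil list genes, 16 had a window in the table, and 7 of these (43.8%) held TTGCNNAA. The share was 9.56% of all 32851 windows, 15.2% of windows of genes at least 4-fold higher in macrophages, and 9.38% of windows of genes at least 2-fold lower. GAGGAA, the core bound by PU.1, which cannot share a base with TTGCNNAA, was also searched on both strands. It was in 62.5% of the windows of the neutrophil list, 32.7% of those of genes at least 4-fold higher, 24.0% of those of genes at least 2-fold lower and 23.3% of all windows. Both motifs were chosen with the expression values known, and a match of letters is not a bound site.

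Further genes at the high end were not all on a list. Jchain, the joining chain gene of secreted antibodies, had levels of 8.06, 9.88, 7.86, 7.89 and 7.60 on the macrophage arrays, against 2.46, 2.73, 2.38 and 2.54 on the monocyte arrays. The monocyte levels lay under the floor, so the means of 8.26 and 2.53 give a difference of at least 42.9-fold (adjusted p = 1.54e-12). Macrophage array 2 was the highest of the 5. The largest fold with both groups above the floor was that of Slco4c1, an organic anion transporter gene, which read 9.17, 8.72, 9.33, 8.71 and 8.76 on the macrophage arrays, against 3.22, 3.40, 3.02 and 3.27 on the monocyte arrays (52.2-fold, adjusted p = 6.04e-15). Syne1, a nuclear envelope spectrin repeat gene, read 9.43, 9.04, 9.49, 8.82 and 9.21 on the macrophage arrays, against 3.82, 4.00, 4.10 and 4.10 on the monocyte arrays (difference 5.19 ± 0.15). The groups of both genes lay far apart, with little spread within either group.

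Gca, which encodes the calcium-binding granule protein grancalcin, read 10.23, 9.88, 10.07, 10.02 and 10.13 on the macrophage arrays, against 4.56, 5.19, 5.09 and 4.92 on the monocyte arrays (difference 5.13 ± 0.16). Cd63, a tetraspanin gene of lysosome and granule membranes, read 10.9981, 10.67, 10.81, 10.89 and 10.73 on the macrophage arrays, against 5.36, 5.89, 6.23 and 6.06 on the monocyte arrays (30.6-fold, adjusted p = 2.77e-16). Prom1, the gene of the membrane protein prominin-1, stood at 5.03 ± 0.22, Ankrd22, an ankyrin repeat gene, at 4.88 ± 0.19, and Klf5, a zinc finger transcription factor gene, at 4.64 ± 0.23. None of these genes had overlapping groups, and all were also called higher in macrophages of healthy marrow.

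The genes lower in macrophages were led by Rnase2a, a gene of the ribonuclease A family, with levels of 4.41, 4.22, 4.46, 3.82 and 3.90 on the macrophage arrays, against 7.42, 7.82, 8.66 and 7.37 on the monocyte arrays. It was 12.6-fold lower in macrophages (difference -3.66 ± 0.24, adjusted p = 1.03e-10), and it was the 1 gene at least 8-fold lower. Uck2, a uridine-cytidine kinase gene, stood at -2.52 ± 0.23, Papss2, which makes the donor for sulfation, at -2.39 ± 0.15, and Gria3, a glutamate receptor subunit gene, at -2.34 ± 0.24. Met, the receptor gene for hepatocyte growth factor, read 5.48, 5.49, 5.72, 6.07 and 5.66 on the macrophage arrays, against 8.27, 8.48, 7.76 and 8.01 on the monocyte arrays (difference -2.44 ± 0.16, adjusted p = 1.17e-10). Mboat1, a lysophospholipid acyltransferase gene, stood at -2.32 ± 0.14 and Akr1c13, an aldo-keto reductase gene, at -2.15 ± 0.12. Sele, the E-selectin gene, read 5.04, 4.40, 4.78, 4.85 and 4.84 on the macrophage arrays, against 6.46, 7.28, 7.39 and 6.95 on the monocyte arrays (difference -2.24 ± 0.17). Saa3, an acute-phase serum amyloid gene, read 8.66, 6.06, 8.49, 8.01 and 7.09 on the macrophage arrays, against 8.69, 9.60, 10.72 and 10.24 on the monocyte arrays. Its highest macrophage array and its lowest monocyte array nearly met, and the difference of -2.15 ± 0.43 had an adjusted p of 5.07e-04.

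Marker genes of other blood cells were also higher on the macrophage arrays, and neither their part nor that of the neutrophil genes in the results below was tested. Of 19 T and NK cell markers 15 were higher, 0 lower and 4 did not pass, with a median of 1.01. Over all genes 9.6% were higher and 16.9% lower. The list's mean level lay between 4.99 and 5.70 on the macrophage arrays and between 3.94 and 4.04 on the monocyte arrays. Cd3d, a chain of the T cell receptor complex, read 8.11, 7.62, 8.06, 7.54 and 7.92 on the macrophage arrays, against 3.41, 3.99, 3.99 and 4.21 on the monocyte arrays. Gzma, a killer cell protease gene, read 6.62, 8.75, 6.49, 8.23 and 8.61 on the macrophage arrays, against 3.60, 3.58, 3.58 and 4.28 on the monocyte arrays. The groups of both genes lay apart, by 3.95 ± 0.20 for Cd3d and 3.98 ± 0.41 for Gzma. Klrd1 (3.10 ± 0.27), Ncr1 (2.24 ± 0.31) and Nkg7 (1.99 ± 0.15), genes of NK cells, were higher as well. The count of higher genes was 13 without macrophage array 2.

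Of 18 B lineage markers 12 were higher, 0 lower and 6 did not pass (median 0.70), and the mean level lay between 4.22 and 5.15 on the macrophage arrays and between 3.76 and 3.82 on the monocyte arrays. Cd79a, a chain of the B cell receptor, read 5.45, 8.52, 7.09, 7.11 and 8.08 on the macrophage arrays, against 4.85, 4.57, 4.44 and 4.67 on the monocyte arrays (difference 2.62 ± 0.39). Ms4a1, the CD20 gene, read 3.01, 5.49, 4.96, 4.88 and 5.93 on the macrophage arrays, against 2.60, 2.70, 2.75 and 2.61 on the monocyte arrays, with monocytes at the floor and macrophages at least 4.05-fold higher. Macrophage array 1 was the lowest of its group for both genes, and the groups did not overlap. Rag2 was at or under the floor in both groups. Of 12 plasma cell markers 5 were higher, 1 lower and 6 did not pass. Their mean level was 6.65 on macrophage array 2, at most 5.87 on the other macrophage arrays and at most 4.98 on the monocyte arrays. Jchain, Pou2af1 (2.45 ± 0.22), Slamf7 (2.22 ± 0.17) and Mzb1 (2.11 ± 0.23) were higher, while Xbp1 (-0.06 ± 0.08) and Prdm1 (-0.06 ± 0.12) did not pass and Txndc5 was lower (-1.47 ± 0.16).

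Of 16 dendritic cell markers 9 were higher, 0 lower and 7 did not pass, with mean levels between 5.05 and 5.96 on the macrophage arrays and between 4.63 and 4.74 on the monocyte arrays. Cd209a (2.30 ± 0.26), Ly6d (2.19 ± 0.28) and Clec9a (1.35 ± 0.22) were among the higher genes. Of 18 eosinophil, basophil and mast cell markers 8 were higher, 0 lower and 10 did not pass, with mean levels between 3.51 and 4.09 on the macrophage arrays and between 3.27 and 3.45 on the monocyte arrays. The count of higher genes was 5 without macrophage array 2 or 4. Mcpt8, a basophil protease gene, read 5.64, 9.09, 5.98, 8.59 and 8.86 on the macrophage arrays, against 4.82, 5.67, 5.08 and 5.21 on the monocyte arrays. Its groups overlapped, although its difference of 2.44 ± 0.51 passed. Macrophage arrays 1 and 3 were the lowest of their group for Mcpt8. The same held for the mean level of this list (3.51 and 3.58, against 3.96 to 4.09 on the other macrophage arrays). Ear1, Ccr3, Il5ra, Fcer1a and Tpsb2 of that list were at or under the floor in both groups, although Fcer1a counts among the 8 (its call was lost in 3 of 9 fits without 1 array). Of 13 erythroid markers 4 were higher, 0 lower and 9 did not pass (mean level between 4.38 and 4.64 on the macrophage arrays and between 3.83 and 3.95 on the monocyte arrays), led by the globin gene Hba-a2 (2.62 ± 0.39). Of 14 platelet markers 4 were higher, 1 lower and 9 did not pass (mean level between 4.44 and 4.50 on the macrophage arrays and between 3.98 and 4.17 on the monocyte arrays), and Gp1bb, a platelet glycoprotein gene, was the largest of them (3.12 ± 0.19).

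Markers of non-blood cells were counted as well. Of 20 stromal and bone-forming markers 1 was higher, 3 lower and 16 did not pass (mean level between 3.61 and 3.65 on the macrophage arrays and between 3.60 and 3.62 on the monocyte arrays). That is 5% higher and 15% lower, against 9.6% and 16.9% of all genes. The median of this list was 0.04 and turned to -0.02 with equal array medians. Lepr, Kitl, Ibsp, Postn, Lum, Dcn and Adipoq were at or under the floor in both groups. Of 13 endothelial markers 3 were higher, 1 lower and 9 did not pass (mean level between 4.09 and 4.34 on the macrophage arrays and between 4.08 and 4.16 on the monocyte arrays), so 23.1% were higher, against 9.6% of all genes, and Egfl7 had the largest difference (0.75 ± 0.14). Of 22 epithelial tumour markers 3 were higher, 0 lower and 19 did not pass, with 13.6% higher. The count was 0 after quantile normalization or with equal array medians, 1 with an intensity trend and robust hyperparameters, and 5 with array weights. The mean level of the tumour list lay between 3.55 and 3.67 on the macrophage arrays and between 3.49 and 3.53 on the monocyte arrays, and 6 of its genes were at or under the floor in both groups. The 3 called genes, Krt5, Cdh1 and Epcam, differed by 0.30, 0.29 and 0.28, and each lost its call in at least 5 of 9 fits that left out 1 array (adjusted p up to 0.148). Krt8 and Krt18, keratin genes of mammary epithelium, did not pass, at 0.05 ± 0.14 and 0.25 ± 0.16.

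**Figure D2:**
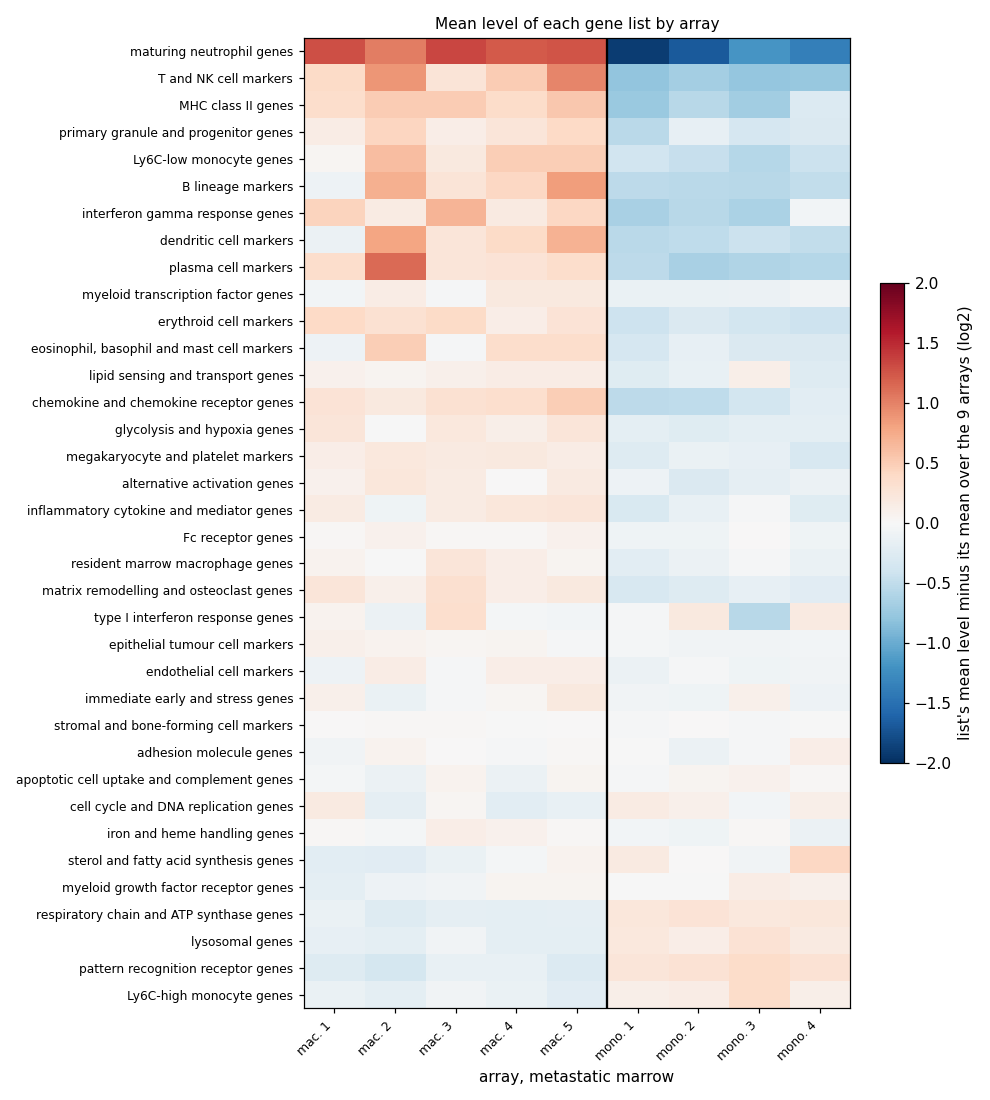
Mean log2 level of each gene list on each array of metastatic marrow, minus its mean over the 9 arrays. Columns are the 5 macrophage arrays and then the 4 monocyte arrays, and rows run from the highest to the lowest median difference. The neutrophil list has the strongest contrast, and macrophage array 2 has the highest plasma cell level of any array (6.65).

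Genes of resident marrow macrophages went both ways, with more of them higher than lower. Of 20 genes 7 were higher, 3 lower and 10 did not pass (median 0.17), so 35.0% were higher and 15.0% lower. Over all genes 9.6% were higher and 16.9% lower. Vcam1 read 6.30, 5.36, 6.13, 5.39 and 5.29 on the macrophage arrays, against 4.64, 4.74, 4.72 and 4.36 on the monocyte arrays, with all macrophage arrays above all monocyte arrays (difference 1.08 ± 0.18, adjusted p = 9.05e-05). Il18bp, which encodes a decoy that binds interleukin-18, stood at 1.17 ± 0.13, the Wnt pathway factor gene Tcf7l2 at 1.17 ± 0.29, and Timd4, a receptor gene for phosphatidylserine on dying cells, at 1.04 ± 0.15. Spic, a factor gene of iron-recycling macrophages, was higher by 0.90 ± 0.16. Besides Adgre1, Cd68, a lysosomal glycoprotein gene of macrophages, was lower (-0.90 ± 0.10), and so was Folr2 (-0.38 ± 0.14), whose call was lost in 7 of 9 fits without 1 array (adjusted p up to 0.101). Cd5l and Ccr3 were at or under the floor in both groups.

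Genes for the uptake of dying cells and for complement went both ways as well. Of 22 genes 6 were higher, 7 lower and 9 did not pass. Cd36, a scavenger receptor gene, read 5.97, 7.04, 6.39, 6.43 and 6.94 on the macrophage arrays, against 3.58, 3.92, 3.39 and 3.41 on the monocyte arrays (7.87-fold higher, adjusted p = 1.10e-08). C1qb read 6.67, 6.14, 7.37, 6.25 and 7.52 on the macrophage arrays, against 5.09, 5.95, 5.31 and 6.02 on the monocyte arrays, with the lowest macrophage array only just above the highest monocyte array. Pros1, whose product bridges dying cells to uptake receptors, stood at -1.69 ± 0.15 and the scavenger receptor gene Msr1 at -1.67 ± 0.14. The complement receptor gene C3ar1 (-0.02 ± 0.28) and Elmo1 (0.13 ± 0.09), which acts in engulfment, did not pass.

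Among 20 genes of iron and heme handling 3 were higher, 8 lower and 9 did not pass, and 1 of the higher genes was the largest by far. Slc40a1, which encodes ferroportin, the only known iron exporter of mammalian cells, read 8.49, 7.76, 8.36, 8.08 and 8.02 on the macrophage arrays, against 4.10, 3.27, 3.61 and 3.58 on the monocyte arrays. It was 22.6-fold higher in macrophages (difference 4.50 ± 0.18, adjusted p = 2.49e-14), and the median of the list was -0.19. Ncoa4, which delivers ferritin for breakdown, read 7.41, 6.87, 7.36, 6.83 and 7.15 on the macrophage arrays, against 5.49, 5.59, 6.08 and 5.48 on the monocyte arrays (difference 1.46 ± 0.17), and Tfrc, the transferrin receptor gene, stood at 0.86 ± 0.15. Blvra, a biliverdin reductase gene, was lower (-0.78 ± 0.08), as were the heme-degrading enzyme gene Hmox1 (-0.43 ± 0.10) and the ferritin genes Ftl1 (-0.23 ± 0.07) and Fth1 (-0.22 ± 0.08). The call of Fth1 was lost in 8 of 9 fits without 1 array (adjusted p up to 0.131). Tfrc is also on the erythroid list above.

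Lysosomal genes were mostly lower in macrophages. Of 26 genes 3 were higher, 18 lower and 5 did not pass, against 16.9% of all genes lower, and the median was -0.48. The mean level of the list lay between 8.39 and 8.52 on the macrophage arrays and between 8.72 and 8.87 on the monocyte arrays. On the same arrays 18 of 19 neutrophil genes were higher, with mean levels between 9.98 and 10.28 on the macrophage arrays and between 7.05 and 7.77 on the monocyte arrays, and their part in this result was not tested. Ctsl, cathepsin L, read 6.47, 7.57, 6.63, 6.86 and 6.76 on the macrophage arrays, against 7.96, 7.96, 8.51 and 7.96 on the monocyte arrays (difference -1.24 ± 0.17). Scarb2 (-0.93 ± 0.12), which sorts an enzyme to lysosomes, Ctsa (-0.90 ± 0.12), the protease gene Lgmn (-0.88 ± 0.17) and Ctsz (-0.83 ± 0.12) were lower by less than 2-fold. Ctsd, cathepsin D, stood at 0.06 ± 0.09 and Lamp2, a lysosome membrane protein gene, at -0.20 ± 0.09, and neither passed. Among the 3 higher genes were Acp5, the osteoclast acid phosphatase gene (0.54 ± 0.11), and Atp6v0d2 (0.72 ± 0.20), whose monocyte mean lay under the floor.

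Genes of lipid sensing and transport went both ways. Of 22 genes 9 were higher, 7 lower and 6 did not pass. Fabp4, a fatty acid carrier gene, read 4.67, 5.93, 5.05, 5.45 and 5.23 on the macrophage arrays, against 2.61, 3.24, 3.01 and 2.50 on the monocyte arrays (5.39-fold higher, adjusted p = 8.92e-06). Pparg, the fatty acid sensing nuclear receptor gene, was higher by 1.43 ± 0.23, Lpl, the lipoprotein lipase gene, by 1.17 ± 0.20, and the triglyceride synthesis genes Dgat1 and Dgat2 by 1.78 ± 0.13 and 1.22 ± 0.25. Trem2, a lipid receptor gene, read 6.37, 6.70, 6.38, 6.59 and 6.33 on the macrophage arrays, against 8.29, 7.93, 8.12 and 8.41 on the monocyte arrays (difference -1.71 ± 0.15). Apoc1, an apolipoprotein gene, was lower as well (-1.75 ± 0.19), and the carrier genes Fabp7 and Fabp5 stood at -1.65 ± 0.26 and -1.59 ± 0.11. Lipg is described with the genes that differed between kinds of marrow.

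Ly6C-high monocyte genes were lower in macrophages with some exceptions. Of 20 genes 5 were higher, 11 lower and 4 did not pass (median -0.58). Vcan, a matrix proteoglycan gene, read 8.48, 8.05, 8.73, 8.99 and 8.55 on the macrophage arrays, against 10.54, 10.60, 11.10 and 10.44 on the monocyte arrays (difference -2.11 ± 0.27, adjusted p = 2.81e-06). F13a1, a clotting factor subunit gene of monocytes, read 9.05, 9.25, 9.10, 9.37 and 8.67 on the macrophage arrays, against 11.04, 10.99, 11.18 and 10.9995 on the monocyte arrays (difference -1.96 ± 0.18). Ccr2 read 9.31, 9.36, 9.23, 9.56 and 9.35 on the macrophage arrays, against 10.29, 10.04, 10.27 and 10.11 on the monocyte arrays (difference -0.82 ± 0.13, adjusted p = 3.28e-05), and none of these 3 genes had overlapping groups. Thbs1, the thrombospondin gene, stood at -2.08 ± 0.32 and Fn1, fibronectin, at -1.47 ± 0.16. Ly6c1 did not pass (-0.58 ± 0.23), but did without macrophage array 1 (adjusted p = 0.0279) or monocyte array 4 (0.0341). The 5 higher genes were Cd177 (2.76 ± 0.15), a neutrophil surface gene that is also on the neutrophil list, Trem3 (2.47 ± 0.13), Ly6a (2.11 ± 0.29), Chil3 and Hp (0.35 ± 0.10).

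Genes of Ly6C-low monocytes, the patrolling subset, were mostly higher in macrophages. Of 16 genes 9 were higher, 2 lower and 5 did not pass, and 56.2% were higher, against 9.6% of all genes. The mean level of the list was 7.81 and 7.96 on macrophage arrays 1 and 3 and 8.26 to 8.39 on the other macrophage arrays. On the monocyte arrays it was at most 7.38. Ace, the angiotensin-converting enzyme gene, read 7.60, 8.93, 7.82, 8.59 and 8.51 on the macrophage arrays, against 6.48, 6.21, 4.55 and 5.54 on the monocyte arrays (difference 2.60 ± 0.38). Itgax, the CD11c gene, read 5.68, 6.36, 6.44, 6.03 and 6.49 on the macrophage arrays, against 4.22, 3.76, 4.16 and 4.80 on the monocyte arrays (difference 1.97 ± 0.23), Cd300e stood at 1.84 ± 0.24 and Nr4a1, the factor gene needed for this subset, at 1.52 ± 0.25. Pglyrp1, which also encodes a neutrophil granule protein, was the largest at 3.03 ± 0.10. Cx3cr1, the fractalkine receptor gene of this subset, read 8.58, 8.79, 8.45, 9.07 and 8.92 on the macrophage arrays, against 8.78, 8.52, 8.33 and 8.72 on the monocyte arrays. Its groups overlapped and it did not pass (difference 0.17 ± 0.17, adjusted p = 0.531).

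Myeloid transcription factor genes went both ways. Of 29 genes 8 were higher, 8 lower and 13 did not pass. Besides Cebpe, Bhlhe40 (2.38 ± 0.18), Spib (1.48 ± 0.23), Gfi1 (1.13 ± 0.12), which represses monocyte genes in granulocyte precursors, and Egr2 (1.03 ± 0.18) were higher. Klf4, a factor gene of monocyte differentiation, read 6.79, 7.33, 6.85, 7.13 and 7.17 on the macrophage arrays, against 8.90, 8.80, 8.90 and 9.02 on the monocyte arrays (difference -1.85 ± 0.14, adjusted p = 1.14e-09). Irf8, which directs progenitors to monocytes, read 7.17, 7.85, 7.23, 7.59 and 7.85 on the macrophage arrays, against 8.73, 8.46, 8.50 and 8.73 on the monocyte arrays (difference -1.07 ± 0.18), and the groups of both genes lay apart. Tfec (-1.80 ± 0.14), Cebpa (-1.24 ± 0.15), Irf5 (-1.11 ± 0.13) and Zeb2 (-1.08 ± 0.16) were also lower. Spi1, which encodes PU.1, stood at -0.06 ± 0.08 and Id2 at -0.14 ± 0.23, and neither passed.

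Myeloid growth factor and cytokine receptor genes were more often lower. Of 20 genes 3 were higher, 11 lower and 6 did not pass, with 15.0% higher and 55.0% lower, against 9.6% and 16.9% of all genes. Besides Csf1r, the interleukin-6 receptor gene Il6ra (-1.25 ± 0.12) and the interferon gamma receptor genes Ifngr1 (-0.53 ± 0.09) and Ifngr2 (-0.49 ± 0.11) were lower. Il4ra read 7.92, 7.99, 7.74, 8.27 and 8.31 on the macrophage arrays, against 8.17, 8.51, 8.48 and 8.47 on the monocyte arrays. Its groups overlapped, and its call (difference -0.36 ± 0.11, adjusted p = 0.0175) was lost without macrophage array 3 (adjusted p = 0.0592) or monocyte array 2, 3 or 4 (0.0588, 0.0528 and 0.0524). Csf3r, the granulocyte colony-stimulating factor receptor gene, was higher by 0.33 ± 0.10, a call that was lost without monocyte array 2 (adjusted p = 0.0775). Tgfbr1, a receptor gene for TGF-beta, was higher by 0.47 ± 0.11.

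Pattern recognition receptor genes were lower as well. Of 22 genes 3 were higher, 14 lower and 5 did not pass (median -0.53, -0.40 with 9 lower after quantile normalization), with mean levels between 6.11 and 6.32 on the macrophage arrays and between 6.71 and 6.83 on the monocyte arrays. Ly96, the partner of the endotoxin receptor, read 5.97, 5.38, 5.69, 6.28 and 5.36 on the macrophage arrays, against 7.59, 7.12, 7.34 and 7.59 on the monocyte arrays (difference -1.67 ± 0.16). Clec4d, a C-type lectin gene, stood at -1.86 ± 0.33, Tlr8 at -1.52 ± 0.13, Tlr5 at -1.41 ± 0.12 and Tlr2 at -0.63 ± 0.14. Tlr4, the endotoxin receptor gene itself, stood at 0.10 ± 0.11 and did not pass. The 3 higher genes were Tlr12 (0.87 ± 0.15), Nod1 (0.84 ± 0.11) and Tlr11 (0.56 ± 0.18), the last of which was lost without macrophage array 1 or 3 or monocyte array 1 or 2 (adjusted p up to 0.0698). Of 12 Fc receptor genes 5 were higher, 4 lower and 3 did not pass, and 2 were higher among the 7 left without dim genes. Fcgr1, the high-affinity antibody receptor gene, was lower (-1.15 ± 0.20), Fcgrt, the neonatal Fc receptor gene, likewise (-0.89 ± 0.18), and Fcgr4 was higher (1.01 ± 0.27) with overlapping groups.

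MHC class II genes were higher in macrophages. Of 9 genes 6 were higher, 1 lower and 2 did not pass (median 1.00). H2-Ab1, a class II beta chain gene, read 9.75, 9.99, 10.06, 9.73 and 9.90 on the macrophage arrays, against 7.13, 7.49, 7.57 and 8.41 on the monocyte arrays (difference 2.23 ± 0.19, adjusted p = 8.14e-09). Cd74, the invariant chain gene, read 10.62, 10.95, 10.93, 10.70 and 10.96 on the macrophage arrays, against 8.77, 9.07, 9.01 and 9.40 on the monocyte arrays (difference 1.77 ± 0.13). H2-Aa (1.51 ± 0.14), H2-Oa (1.11 ± 0.15) and Ciita (1.00 ± 0.17), the master regulator of the class, were higher, while H2-Eb1 (0.49 ± 0.20) and H2-Ob (0.61 ± 0.23) did not pass. H2-Eb1 and H2-Ob passed when the 9 arrays were fitted alone (adjusted p = 0.0198 and 0.0118). H2-Ob gained a call in 5 of 17 alternative runs, among them the fit without macrophage array 1 (adjusted p = 0.0290). H2-DMa, a peptide loading gene, was lower (-0.36 ± 0.13), a call that was lost in 9 of 9 fits without 1 array (adjusted p up to 0.142). B cells and dendritic cells carry these genes too, and their markers were higher with them: the mean level of the B lineage list ran from 4.22 to 5.15 on the macrophage arrays and from 3.76 to 3.82 on the monocyte arrays. Its part in the result was not tested.

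Genes that interferon gamma induces were mostly higher in macrophages. Of 22 genes 15 were higher, 1 lower and 6 did not pass, and the median was 0.68. Cxcl9, a chemokine gene that draws T cells, read 9.82, 8.52, 9.86, 9.52 and 9.83 on the macrophage arrays, against 5.92, 6.48, 7.19 and 8.43 on the monocyte arrays. Macrophage array 2 was the lowest of its group and monocyte array 4 the highest of its own, and the groups did not overlap (difference 2.50 ± 0.37, adjusted p = 1.40e-05). Cxcl11 read 7.23, 5.97, 7.60, 7.17 and 7.53 on the macrophage arrays, against 3.76, 4.08, 5.00 and 6.18 on the monocyte arrays (difference 2.34 ± 0.36). Cxcl10 read 6.97, 5.86, 7.22, 6.58 and 6.68 on the macrophage arrays, against 4.82, 4.83, 4.64 and 5.93 on the monocyte arrays (difference 1.61 ± 0.24). In both genes macrophage array 2 lay below monocyte array 4, and the groups were otherwise apart. Iigp1, an immunity-related GTPase gene, stood at 2.00 ± 0.34 and the guanylate-binding protein gene Gbp8 at 1.92 ± 0.36, while Gbp7 (-0.30 ± 0.20) and Gbp3 (0.10 ± 0.12) did not pass. T and NK cells are a known source of this interferon, and 15 of 19 of their markers were higher on the same arrays (mean level between 4.99 and 5.70 on the macrophage arrays and between 3.94 and 4.04 on the monocyte arrays). Their part in the result was not tested.

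Type I interferon response genes showed no common direction. Of 25 genes 5 were higher, 3 lower and 17 did not pass (median 0.13). That is 20% higher and 12% lower, against 9.6% and 16.9% of all genes. The median was -0.03 without monocyte array 3 and 0.002 without macrophage array 3. Ifit2 read 6.47, 6.49, 6.71, 6.18 and 6.25 on the macrophage arrays, against 4.70, 4.96, 4.84 and 5.19 on the monocyte arrays (difference 1.49 ± 0.12), and Ddx58, the RIG-I sensor gene, was higher by 0.72 ± 0.10. Xaf1 (-0.84 ± 0.17) and Mx2 (-0.84 ± 0.22) were lower. Irf7 (-0.06 ± 0.18) and Zbp1 (-0.25 ± 0.21) did not pass, and monocyte array 3 held the lowest monocyte level of both.

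Of 24 chemokine and receptor genes 9 were higher, 3 lower and 12 did not pass. Ccl5, a chemokine gene of T and NK cells among others, read 8.94, 9.75, 8.75, 9.81 and 9.83 on the macrophage arrays, against 4.74, 5.26, 5.81 and 6.24 on the monocyte arrays (15.0-fold higher, adjusted p = 7.59e-10). Ccl3 (2.15 ± 0.34), Ccl22 (1.88 ± 0.30) and Ccl4 (1.66 ± 0.22) were higher too. Ccl9 (-1.27 ± 0.10) and Ccl6 (-1.11 ± 0.15) were lower along with Ccr2, and Cxcr4, the receptor gene that keeps cells in the marrow, did not pass (-0.13 ± 0.13). Of 23 inflammatory cytokine and mediator genes 8 were higher, 4 lower and 11 did not pass. Tnf read 9.09, 8.83, 9.10, 9.21 and 9.38 on the macrophage arrays, against 6.89, 7.03, 7.55 and 6.71 on the monocyte arrays (difference 2.07 ± 0.16). Il1b read 7.49, 6.76, 7.38, 7.90 and 7.76 on the macrophage arrays, against 6.64, 6.50, 5.04 and 5.94 on the monocyte arrays (difference 1.43 ± 0.30). Neither cytokine gene had overlapping groups. Cd86, a costimulatory gene, and Il18 were lower, at -0.86 ± 0.20 and -0.79 ± 0.25, and Il18 lost its call without monocyte array 3 (adjusted p = 0.0902). Il6 and Ptgs2 were at or under the floor in both groups. Of 21 alternative activation genes 7 were higher, 3 lower and 11 did not pass, led by the growth factor gene Vegfa (2.61 ± 0.18) and, on the other side, by Trem2.

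Adhesion molecule genes went both ways. Of 28 genes 8 were higher, 8 lower and 12 did not pass, and the median of 0.03 turned to -0.03 with equal array medians. Itga1, a collagen-binding integrin chain gene, read 4.61, 4.16, 4.65, 4.19 and 4.35 on the macrophage arrays, against 6.70, 6.20, 6.24 and 6.76 on the monocyte arrays (difference -2.09 ± 0.20). Itga8 (-1.62 ± 0.23), Itgb7 (-1.16 ± 0.18) and the fibronectin receptor chain gene Itga5 (-1.06 ± 0.13) were also lower. Itga6, a laminin receptor chain gene, read 6.56, 6.14, 6.56, 6.17 and 6.43 on the macrophage arrays, against 4.47, 4.72, 4.71 and 4.75 on the monocyte arrays (difference 1.71 ± 0.17). Itgam, the CD11b gene of myeloid cells, read 10.69, 10.53, 10.68, 10.44 and 10.59 on the macrophage arrays, against 9.78, 9.68, 10.14 and 9.79 on the monocyte arrays (difference 0.74 ± 0.10, adjusted p = 7.26e-06), and Itgb3 stood at 0.99 ± 0.14.

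Among 26 genes of matrix remodelling and osteoclasts 9 were higher, 5 lower and 12 did not pass. That is 34.6% higher and 19.2% lower, against 9.6% and 16.9% of all genes. Mmp25, a membrane-bound metalloproteinase gene of leukocytes, read 9.32, 8.87, 9.54, 9.20 and 9.42 on the macrophage arrays, against 4.68, 4.76, 5.09 and 4.94 on the monocyte arrays (21.1-fold higher, adjusted p = 1.60e-13). Car2, the carbonic anhydrase gene of osteoclasts and red cell precursors, stood at 2.31 ± 0.30 and Plau, the urokinase gene, at 1.85 ± 0.14. Mmp19 (-1.47 ± 0.14) and Tgfbi (-1.42 ± 0.12), an adhesive matrix protein gene, were lower along with Mmp8, and the osteopontin gene Spp1 was lower by less (-0.51 ± 0.11). Ctsk, the main collagen-degrading protease of osteoclasts, stood at 0.88 ± 0.34 and did not pass, except without macrophage array 4 or 5 (adjusted p = 0.0297 and 0.0246).

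Respiratory chain genes were lower together. Of 28 respiratory chain and ATP synthase genes 0 were higher, 22 lower and 6 did not pass, with 78.6% lower against 16.9% of all genes. The differences were small (median -0.38), and the mean level of the list lay between 8.0 and 8.12 on the macrophage arrays and between 8.46 and 8.52 on the monocyte arrays. Atp5a1, an ATP synthase subunit gene, read 9.96, 9.89, 10.03, 9.70 and 9.93 on the macrophage arrays, against 10.68, 10.64, 10.53 and 10.68 on the monocyte arrays (difference -0.73 ± 0.09). Sdhb (-0.69 ± 0.08) and Uqcrfs1 (-0.70 ± 0.10), subunit genes of other respiratory complexes, were close to it, and Cox5a (-0.10 ± 0.11) did not pass. Of 22 glycolysis and hypoxia genes 11 were higher, 4 lower and 7 did not pass. Slc2a3, a glucose transporter gene, read 7.83, 6.72, 7.67, 7.09 and 7.81 on the macrophage arrays, against 4.31, 4.27, 4.46 and 4.43 on the monocyte arrays (8.32-fold higher), and Hk3, a hexokinase gene, stood at 1.28 ± 0.16. Bnip3 (-0.86 ± 0.19), Pfkp (-0.82 ± 0.17), Pfkl (-0.50 ± 0.11) and another glucose transporter gene, Slc2a1 (-0.43 ± 0.10), were lower. Of 23 sterol and fatty acid synthesis genes 1 was higher, 10 lower and 12 did not pass, and Scd1, a fatty acid desaturase gene, was the exception, at least 2.68-fold higher with the monocyte mean under the floor. The lower genes numbered 6 without monocyte array 4 and 5 (with 2 higher) after quantile normalization. Fdps and Dhcr7, enzyme genes of cholesterol synthesis, stood at -0.87 ± 0.18 and -0.69 ± 0.14.

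Cell cycle genes went both ways. Of 33 genes 5 were higher, 11 lower and 17 did not pass (median -0.10), so 15.2% were higher and 33.3% lower, against 9.6% and 16.9% of all genes. The median was -0.17 without monocyte array 3 and -0.0038 after quantile normalization, where 8 genes were higher. The mitotic genes Aurkb (-1.14 ± 0.19), Ccnb1 (-1.05 ± 0.14) and Aurka (-0.84 ± 0.16) were lower. Cdc6 (0.87 ± 0.14), which licenses replication origins, and Ccne2 (0.80 ± 0.13), a cyclin gene of S phase entry, were higher, as were E2f1 (0.48 ± 0.11), Mcm5 (0.42 ± 0.11) and Pcna (0.34 ± 0.10), which lost its call without monocyte array 3 (adjusted p = 0.0502). Mki67, the proliferation marker gene, read 10.52, 10.28, 10.35, 10.10 and 10.21 on the macrophage arrays, against 10.31, 10.22, 10.16 and 10.31 on the monocyte arrays and did not pass (difference 0.04 ± 0.10). Of 18 immediate early and stress genes 3 were higher (16.7%), 1 lower (5.56%) and 14 did not pass, against 9.6% and 16.9% of all genes. Among them Fos read 5.63, 4.96, 5.08, 4.99 and 4.87 on the macrophage arrays, against 6.51, 6.96, 7.30 and 6.64 on the monocyte arrays (difference -1.75 ± 0.22).

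**Figure D3:**
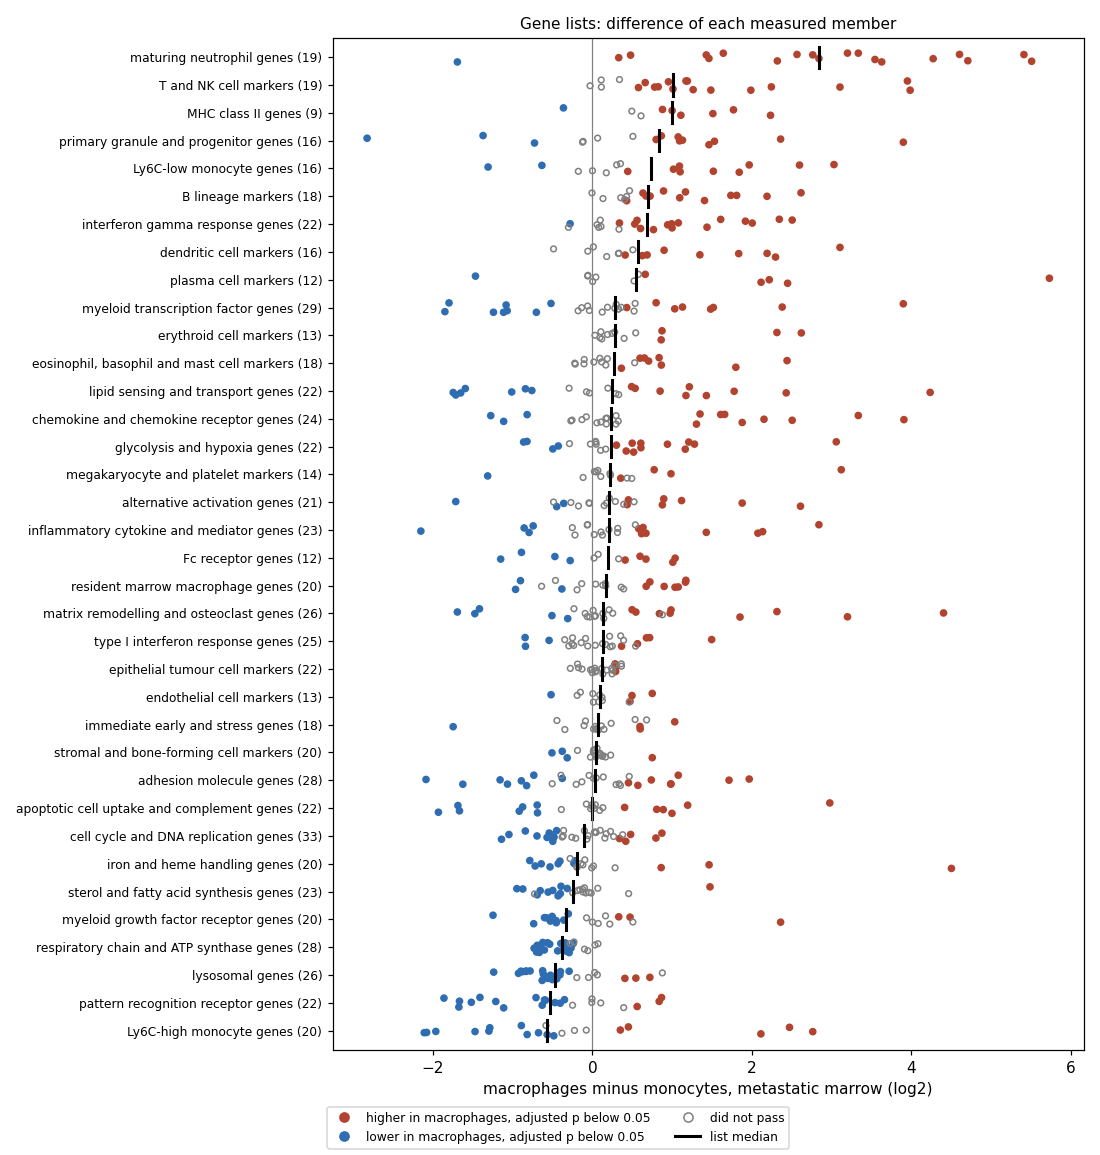
Log2 difference, macrophages minus monocytes of metastatic marrow, of each measured member of the 36 gene lists, with the number of members in brackets. Red points are higher and blue points lower in macrophages at an adjusted p below 0.05, open points did not pass, and black bars are list medians. Medians run from 2.84 for the neutrophil list to -0.58 for the Ly6C-high list, and the respiratory chain list has no red point.

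Most cell-type differences of metastatic marrow were also found in healthy marrow. The healthy group means come from 10 other arrays, but the tests in both kinds of marrow share the same estimate of the spread. The calls in metastatic and in healthy marrow are therefore not independent of each other. In healthy marrow 5886 genes passed (28%). Of the 5563 calls in metastatic marrow, 4212 were called in the same direction in healthy marrow, which is 75.7% of the metastatic calls and 71.6% of the healthy ones. The sign was the same in 97.2%. Of the 969 differences of at least 2-fold (4.61% of all genes), 95.9% were called the same way in healthy marrow and 40 were not. Saa3 was among the 40, at -2.15 ± 0.43 in metastatic and -0.54 ± 0.41 in healthy marrow, with an interaction that did not pass (adjusted p = 0.487). Across the 20998 genes the differences correlated at r = 0.895 (Spearman rho 0.718), a description over genes that share arrays within each comparison.

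Of the respiratory chain genes called in metastatic marrow, 22 of 22 had the same call in healthy marrow. The same held for 17 of 19 neutrophil genes, 17 of 21 lysosomal genes and 7 of 7 class II genes. On the interferon gamma list it was 9 of 16, and the median was 0.68 in metastatic and 0.26 in healthy marrow. Cxcl9, Cxcl10, Cxcl11 and Iigp1 stood at 2.50, 1.61, 2.34 and 2.00 in metastatic marrow, against 1.68, 0.31, 0.54 and 0.40 in healthy marrow. None of these 4 genes passed the test of the difference between the marrows (adjusted p from 0.213 to 0.729). The T and NK list had 9 of 15 calls in common, with medians of 1.01 in metastatic and 0.58 in healthy marrow, and no gene of it passed that test either. Other lists had the larger median in healthy marrow. The Ly6C-low monocyte list stood at 0.73 in metastatic and 1.62 in healthy marrow, with 10 of 11 calls in common. For the resident macrophage list the medians were 0.17 and 0.35, with 9 of 10 calls in common. Vcam1 stood at 1.08 in metastatic and 2.05 in healthy marrow. No gene of these 2 lists passed the test of the difference between the marrows (Vcam1, adjusted p = 0.224).

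**Figure D4:**
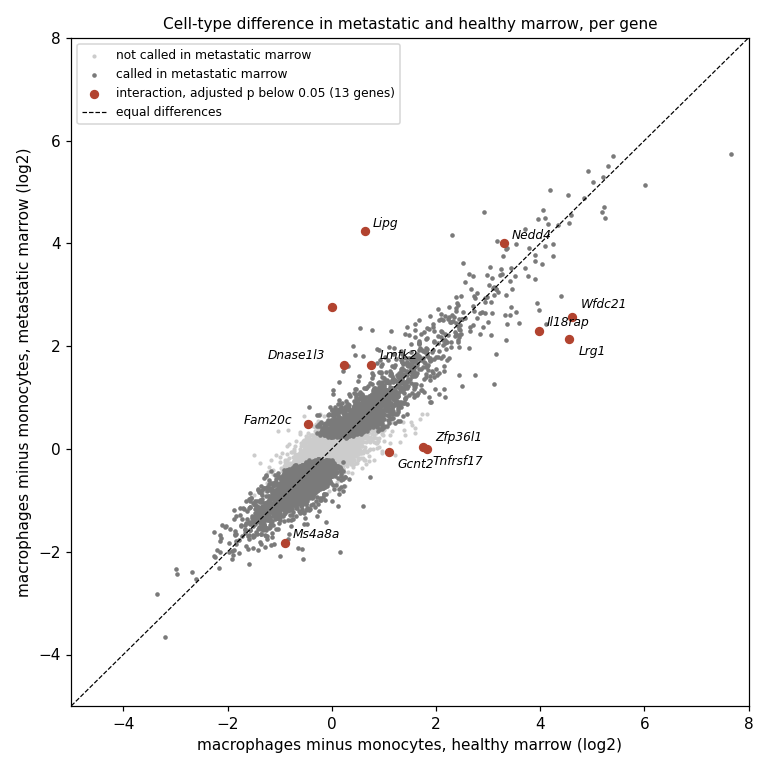
Log2 difference between macrophages and monocytes of each gene in metastatic marrow (vertical axis) against healthy marrow (horizontal axis). Light points were not called in metastatic marrow, dark points were, and red points passed the test of the difference between marrows. Most points lie near the dashed line of equal differences (r = 0.895), and Lipg lies far above it.

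Whether a cell-type difference had another size in metastatic than in healthy marrow was tested as an interaction. It passed in 13 genes (0.0619%), 6 with a larger signed difference in metastatic marrow (0.0286%) and 7 with a smaller one (0.0333%), while 1653 genes had an unadjusted p under 0.05. Among the 13, 1 is a predicted transcript and is not named. Of the 1347 genes called in metastatic but not in healthy marrow, 3 passed, so for the others a difference between the marrows was not shown. The standard error of an interaction had a median of 0.165.

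Lipg, which encodes endothelial lipase, had the largest interaction. Its levels were 7.16, 6.15, 6.57, 8.06 and 8.19 on the macrophage arrays, against 3.30, 2.72, 3.37 and 2.58 on the monocyte arrays in metastatic marrow, and 3.66, 3.85, 3.12, 3.33 and 4.08 in healthy macrophages and 3.17, 2.92, 2.91, 2.99 and 2.86 in healthy monocytes. Only the metastatic macrophages stood high, at 18.8-fold over the metastatic monocytes, and the interaction was 3.60 ± 0.42 (adjusted p = 2.63e-04). Dnase1l3, a secreted DNase gene, read 4.47, 4.15, 4.83, 4.63 and 4.33 in macrophages and 2.78, 2.53, 3.05 and 3.04 in monocytes in metastatic marrow, against 3.52, 2.84, 3.29, 3.01 and 2.99 in healthy macrophages and 3.0, 2.97, 2.74, 2.82 and 2.94 in healthy monocytes. Its interaction of 1.40 ± 0.20 had an adjusted p of 0.00356.

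In the next genes the monocyte means of the 2 kinds of marrow lay further apart than the macrophage means. Lrg1, a secreted leucine-rich glycoprotein gene, read 10.23, 10.07, 10.23, 10.27 and 10.16 in macrophages and 7.77, 7.51, 8.75 and 8.20 in monocytes in metastatic marrow, against 9.35, 9.79, 9.98, 9.95 and 10.00 in healthy macrophages and 5.10, 5.31, 5.04, 5.56 and 5.25 in healthy monocytes. It was higher in macrophages in both kinds of marrow, by 2.13 ± 0.18 in metastatic and 4.56 ± 0.17 in healthy marrow, and the interaction was -2.43 ± 0.25 (adjusted p = 4.80e-05). The neutrophil gene Wfdc21, whose macrophage levels were near the top of the scale in both kinds of marrow, followed with differences of 2.56 ± 0.28 and 4.61 ± 0.26, and Il18rap, which encodes the accessory subunit of the receptor for interleukin-18, with 2.30 ± 0.23 and 3.98 ± 0.21. Zfp36l1, which promotes mRNA decay, read 7.63, 8.15, 7.83, 8.16 and 8.20 in macrophages and 7.24, 8.05, 9.02 and 7.66 in monocytes in metastatic marrow, against 8.58, 8.55, 8.24, 8.43 and 8.21 in healthy macrophages and 6.27, 7.12, 6.57, 6.60 and 6.30 in healthy monocytes, with a healthy difference of 1.83 ± 0.23 and overlapping groups in metastatic marrow, where it did not pass. Gcnt2, a glycosyltransferase gene, stood at -0.07 ± 0.15 in metastatic and 1.11 ± 0.14 in healthy marrow.

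Tnfrsf17, the plasma cell receptor gene BCMA, was highest in the healthy macrophages. It read 4.00, 3.70, 3.57, 3.47 and 3.60 in macrophages and 4.07, 3.39, 3.59 and 3.45 in monocytes in metastatic marrow, against 5.00, 5.18, 4.94, 5.75 and 5.90 in healthy macrophages and 3.50, 3.26, 3.72, 3.87 and 3.62 in healthy monocytes (interaction -1.72 ± 0.25, adjusted p = 0.00523). The mean level of the plasma cell list lay between 5.76 and 6.65 in metastatic and between 6.83 and 7.07 in healthy macrophages, and its part in this result was not tested. Of the 12 measured genes of that list 1 passed the interaction test itself, and its level is part of these means. Fam20c, a secretory pathway kinase gene, was higher in macrophages than in monocytes of metastatic marrow (0.49 ± 0.13) and lower in healthy marrow (-0.45 ± 0.12). Nedd4, a ubiquitin ligase gene, was higher in macrophages by 4.00 ± 0.09 in metastatic and 3.30 ± 0.09 in healthy marrow, and Lmtk2, a kinase gene, by 1.63 ± 0.12 and 0.74 ± 0.11. Ms4a8a stood at -1.83 ± 0.12 in metastatic and -0.90 ± 0.11 in healthy marrow.

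Most of the interaction calls were lost in most of the fits that left out 1 array. Lipg, Lrg1, Dnase1l3 and Tnfrsf17 kept their calls in all 19 fits that left out 1 array, and the other 8 named genes lost theirs in 13 to 15 of them (adjusted p up to 0.122). The count was 48 without healthy macrophage array 5. It was 8 without healthy macrophage array 1, 4 without array 2 or 3 and 7 without array 4. It was 6 without metastatic macrophage array 1 or 4, and 5 without array 3 or 5. It was 4 without metastatic monocyte array 2 and 8 without array 3. It was 4 without healthy monocyte array 1, 6 without array 3 and 5 without array 4 or 5. Interactions below 0 numbered 11 without metastatic macrophage array 2 and 12 without metastatic monocyte array 1, against 7 with all arrays, and those above 0 numbered 2 without healthy monocyte array 2, against 6.

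**Figure D5:**
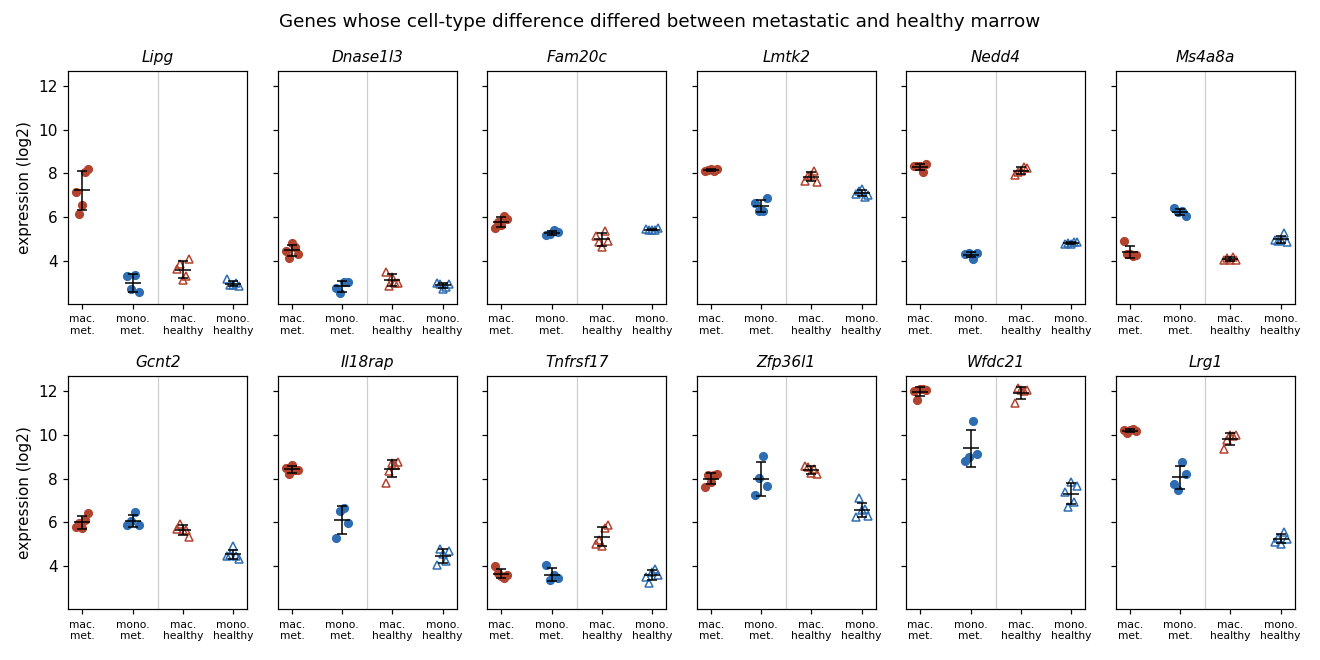
Log2 level of the 12 named genes of the interaction on every array. Filled points are metastatic marrow and open triangles healthy marrow, red is macrophages and blue monocytes, and bars are mean and SD. Lipg is high only in metastatic macrophages, whereas Lrg1, Wfdc21, Zfp36l1, Il18rap and Gcnt2 have higher means in metastatic than in healthy monocytes.

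Of 205 microRNA genes, 16 were higher and 2 lower in macrophages, which is below the 9.6% and 16.9% of all genes. Of the 205, 84 had both groups at or under the floor. These rows read the gene or its primary transcript, not a mature arm. For 2 loci the mature sequences are shown as RefSeq (GRCm38.p6) gives them, since their genes differed by at least 2-fold without overlap and above the floor in both groups. The seed, bases 2 to 8, is in capitals, and no seed is shared. The 3p arm of miR-147 is not printed here.

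miR-147-5p: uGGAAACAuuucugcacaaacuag
miR-142a-5p: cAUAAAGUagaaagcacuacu
miR-142a-3p: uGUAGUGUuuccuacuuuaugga

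Mir147, on chromosome 2, read 9.22, 8.70, 9.19, 9.24 and 9.21 on the macrophage arrays, against 3.62, 3.76, 3.95 and 3.93 on the monocyte arrays. It was 39.3-fold higher in macrophages (difference 5.30 ± 0.20, adjusted p = 1.59e-14), and the healthy difference was 5.21 ± 0.19. Mir142, on chromosome 11, read 8.70, 8.94, 8.51, 9.25 and 9.01 on the macrophage arrays, against 6.42, 7.21, 8.37 and 7.81 on the monocyte arrays, with monocyte array 3 just under the lowest macrophage array (difference 1.43 ± 0.35, adjusted p = 0.00342). The healthy difference was 2.75 ± 0.33. Both loci were chosen after their values were seen.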

How the data were processed

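Marrow macrophages and monocytes were profiled on 19 Affymetrix MoGene 2.0 ST arrays. The deposited values are log2 expression levels, 1 per gene symbol and array, made by the authors with the R package oligo, per the submitters' processing notes. No version is named there, and neither are the background correction, the normalization or the way probes became genes. The number of arrays limits the precision, and levels near the background compress differences.

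Groups came from the labels. In limma 3.58.1 (R 4.3.3) 4 group means were fitted to all 19 arrays, which share 1 estimate of the spread, and macrophages minus monocytes was tested in metastatic and in healthy marrow, as was the difference between these differences (the interaction). P-values were adjusted by Benjamini-Hochberg over 20998 genes, with a threshold of 0.05. Code was tested on simulated data. The floor is the highest level of 4 Y-linked genes on the 9 arrays, and "at least" folds use it in place of lower levels.

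Members and gene lists were chosen with earlier results of these data known, so the lists are described by counts and medians. The text names genes among the 12 largest non-overlapping differences each way, the 8 largest interactions each way, up to 5 called and 2 uncalled genes per list, and 11 fixed genes, leaving out predicted transcripts and small RNAs. Some genes that these rules name are not reported here. Ngp, H2-DMa, Mir147, Mir142 and others in short counts were named after their values were seen. Alternatives covered the variance model, dim genes, normalization, the size threshold and each array left out.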

Additional observations from a re-analysis of the deposited data

Results flagged for a closer look

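On the arrays of metastatic marrow, 508 groups of levels (the 5 macrophage or the 4 monocyte levels of a gene named in the report) were searched for an array whose gap to its nearest neighbour took up most of the range of its group (Dixon's 95% limit). This held in 37 groups, and chance alone flags about 1 in 20, or 25.4 of them. The cause was not tested. Macrophage array 1 stood apart in 4, high for Ngp (12.15), Gfi1 (6.27), Fos (5.63) and Ms4a8a (4.92). Macrophage array 2 stood apart in 12, high for Jchain (9.88), Mzb1 (7.73) and Ctsd (10.53) and low for Ly6c2 (11.88), Klf5 (8.65), Xbp1 (8.98), Tlr4 (6.54), Cxcl9 (8.52), Cxcl11 (5.97), Tgfbi (9.28), Wfdc21 (11.59) and Mir147 (8.70). Macrophage array 4 stood apart in 2, low for Vegfa (7.17) and Nedd4 (8.07). Monocyte array 1 stood apart in 4, high for Plau (7.37) and low for Bhlhe40 (5.82), Il4ra (8.17) and Itga6 (4.47). Monocyte array 2 stood apart in 4, high for Uck2 (8.56), Rag2 (2.96) and Gfi1 (5.30) and low for Mboat1 (7.57). Monocyte array 3 stood apart in 7, high for Mmp8 (11.31), Ctsl (8.51), Cd300e (5.58), Il18 (7.68) and Mmp19 (7.34) and low for Gria3 (7.13) and Nr4a1 (6.22). Monocyte array 4 stood apart in 4, high for Gzma (4.28), Cdh1 (3.88) and Cxcl10 (5.93) and low for Fcer1a (1.87).

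The cell-type difference of 12 named genes was not the same in metastatic and in healthy marrow by the interaction test in limma. It was larger in metastatic marrow for Lipg (3.60), Dnase1l3 (1.40), Fam20c (0.94), Lmtk2 (0.89) and Nedd4 (0.70), with the interaction in log2 units in brackets. It was smaller, or more negative, for Lrg1 (-2.43), Wfdc21 (-2.04), Zfp36l1 (-1.83), Tnfrsf17 (-1.72), Il18rap (-1.68), Gcnt2 (-1.18) and Ms4a8a (-0.93).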

How the results depend on the processing

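No called difference of a named gene changed sign under any alternative run. List medians near 0 did: besides the stromal, adhesion and type I interferon lists given in the report, that of the uptake and complement list was -0.0026, 0.02 with array weights and 0.01 to 0.02 without macrophage array 2 or 4 or monocyte array 3, and that of the Fc receptor list was 0.20, -0.28 without dim genes. The adhesion median was also below 0 without dim genes (-0.13) or monocyte array 2 or 3 (-0.0064 and -0.0092), and the stromal one was -0.0056 after quantile normalization. Without dim genes 9 of 11 T and NK markers were higher, 3 of 5 eosinophil, basophil and mast cell markers and 1 of 5 epithelial markers. Under the size thresholds, counts dropped by construction. At least 2-fold left 969 genes in metastatic marrow (525 higher, 444 lower) and 968 in healthy marrow (537 higher, 431 lower). Limma's treat at 1.5-fold left 838 (452 higher, 386 lower) and 935 (508 higher, 427 lower). For the interaction, at least 2-fold left 9 genes (3 above 0, 6 below), treat 2 (1 each way), the intensity trend with robust hyperparameters 6 (3 each way), and array weights gave 21 (14 below 0), and the cause was not tested. Leaving out 1 array gave 4909 to 5448 calls in metastatic marrow (1749 to 1988 higher, 3157 to 3460 lower), 5290 to 5884 in healthy marrow (1866 to 2150 higher, 3420 to 3754 lower), and 4 to 48 interactions (2 to 14 above 0, 2 to 34 below). The share of calls that were higher in metastatic macrophages was 36.2%, 43.5% after quantile normalization and 27.6% with equal array medians. Of the 207 named genes called in metastatic marrow, 194 were called in every alternative run, the 2 size thresholds aside, and 5 of the 47 others gained a call in at least 1. Il4ra also lost its call after quantile normalization (adjusted p = 0.124) and with the 9 arrays alone (adjusted p = 0.0520). No paired analysis was possible because the labels give no replicate numbers that groups share.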
